A study of Mus musculus with 2 samples.

Results

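The genes described here are the receptors through which macrophages recognise antibody-coated, complement-coated and healthy red cells. They were taken as a named list of 10 genes out of 21887 protein-coding genes counted, by name and with no threshold on a measured value, though earlier results of these data were known: the activating Fc gamma receptors Fcgr1, Fcgr3 and Fcgr4, their signalling chain Fcer1g, the inhibitory Fc receptor Fcgr2b, the inhibitory receptor Sirpa with its ligand Cd47, and the beta-2 integrin genes Itgam, Itgax and Itgb2. Single-nucleus ATAC-seq on the 10x Genomics platform, in which a transposase cuts accessible DNA, measured open chromatin in 2 liver samples of untreated male mice aged 8 to 10 weeks. One mouse was Spta sph/sph, homozygous for a spherocytosis allele of the red cell skeleton protein alpha-spectrin, and the other was its Spta wt/wt littermate. Non-parenchymal liver cells were selected on magnetic beads for F4/80, a macrophage surface protein, and 8000 nuclei per sample were aimed at. The series asks how uptake of red cells programs liver macrophages. The deposited barcodes carry the suffix 1 or 2, and nothing in the sources says which suffix is which genotype. The suffixes are called library 2 and library 1 here, and no difference between them is assigned to a genotype. With 1 library per genotype no difference between libraries has a replicate check, so no p-value is given, and all intervals are 95% intervals of counting error only.

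Fc gamma receptors bind the constant part of IgG on a coated red cell. Fcgr1, Fcgr3 and Fcgr4 signal through the gamma chain encoded by Fcer1g, which carries an activating tyrosine motif and recruits the kinase Syk, whereas Fcgr2b carries an inhibitory motif and recruits phosphatases. Sirpa binds Cd47 on healthy red cells and passes an inhibitory signal through the phosphatase Ptpn6, and the integrins Itgam with Itgb2 and Itgax with Itgb2 form complement receptors. In the liver, Kupffer cells, the resident macrophages, clear damaged red cells from the sinusoids, and sinusoidal endothelial cells are known for taking up small immune complexes through Fcgr2b.

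Library 2 held 21656110 fragments in 180316 barcodes and 575 called cells, and library 1 held 11401694 fragments in 116789 barcodes and 637 called cells. Called cells had similar median depths, 13186 fragments in library 2 and 13220 in library 1, but library 2 had 53.7% of its fragments in peaks at the median and library 1 had 72.1%. In library 2, 12.1% of the fragments of the filtered cells lay in local pile-ups, 20 kb stretches in which 1 cell had 10 or more fragments and exceeded by at least 10 times what the other cells of its cluster predict, against 0.661% in library 1. No called cell barcode sequence occurred in both libraries, whereas 36403 barcode sequences did among all barcodes. Clustering on 5 kb bins, with the bins of the genes described here left out, gave 222 Kupffer-like cells in library 2 and 324 in library 1, and 136 and 124 endothelial-like cells. Different clusters held the Kupffer-like cells of each library. Of the 222 in library 2, 218 were in cluster 2, whose leading gene was Marco once pile-ups were masked, and of the 324 in library 1, 308 were in clusters 3 and 7 and 16 were in cluster 2, where they had a median of only 3265.5 fragments. Cluster 2 had 2 of the 11 Kupffer markers more than 2-fold above the mean of the other clusters, cluster 3 had 10 and cluster 7 had 11. That mean takes in the other Kupffer-like clusters, so for cluster 2 it includes clusters 3 and 7. Compared with endothelial-like cells of the same library, Kupffer-like cells had 10 of the 11 markers more than 2-fold higher in library 2 and 11 in library 1. Stellate or fibroblast-like cells numbered 26 in library 2 and 68 in library 1, and hepatocyte-like cells numbered 1 and 28. An unnamed cluster 4, with Napsa and Flt3 among its leading genes, numbered 83 and 52. Its best-scoring marker list was that of dendritic cells, closely followed by that of B cells. Only 3 of the 8 dendritic cell markers were more than 2-fold above the mean of the other clusters. With pile-ups masked, its best list had 1 marker past that limit. Adgre1, which encodes F4/80, had 216 fragments in Kupffer-like and 25 in endothelial-like cells of library 2, and 615 and 18 in those of library 1.

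Promoters of 8 of the 10 genes were in the RefSeq promoter table of build GRCm38.p6, as 250 bases before to 50 after the gene start. For these 8 genes, starts and distances below refer to that start, which can lie inside the annotated gene. For Fcgr3 it was chr1:171059403, in a gene annotated from 171051169 to 171065915. For Cd47 it was chr16:49855654, in a gene annotated from 49851328 to 49912503. Those of Fcgr2b and of 5 genes whose start sites are described are shown on the strand of the gene, 5′ to 3′, with the ETS core GAGGAA or its reverse complement TTCCTC in capitals, the letters bound by the macrophage factor PU.1 among other ETS proteins.
Fcgr1, chr3:96293920-96294219, minus strand: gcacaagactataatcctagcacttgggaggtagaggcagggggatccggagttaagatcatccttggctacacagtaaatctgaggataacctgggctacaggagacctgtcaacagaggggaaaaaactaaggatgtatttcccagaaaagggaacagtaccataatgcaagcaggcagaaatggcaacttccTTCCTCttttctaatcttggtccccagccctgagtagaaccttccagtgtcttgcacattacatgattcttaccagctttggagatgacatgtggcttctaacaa
Fcgr3, chr1:171059354-171059653, minus strand: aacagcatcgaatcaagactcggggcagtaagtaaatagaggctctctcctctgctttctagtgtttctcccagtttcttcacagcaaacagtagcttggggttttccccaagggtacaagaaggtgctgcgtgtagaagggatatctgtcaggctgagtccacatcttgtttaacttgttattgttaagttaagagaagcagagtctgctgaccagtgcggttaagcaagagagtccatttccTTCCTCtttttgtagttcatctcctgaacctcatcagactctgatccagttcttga
Fcgr4, chr1:171018676-171018975, plus strand: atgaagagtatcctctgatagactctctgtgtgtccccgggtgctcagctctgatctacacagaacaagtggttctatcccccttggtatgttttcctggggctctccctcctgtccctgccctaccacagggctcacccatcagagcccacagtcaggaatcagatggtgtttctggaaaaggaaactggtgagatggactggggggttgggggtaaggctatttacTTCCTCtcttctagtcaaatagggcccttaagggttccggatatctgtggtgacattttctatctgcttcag
Fcer1g, chr1:171234300-171234599, minus strand: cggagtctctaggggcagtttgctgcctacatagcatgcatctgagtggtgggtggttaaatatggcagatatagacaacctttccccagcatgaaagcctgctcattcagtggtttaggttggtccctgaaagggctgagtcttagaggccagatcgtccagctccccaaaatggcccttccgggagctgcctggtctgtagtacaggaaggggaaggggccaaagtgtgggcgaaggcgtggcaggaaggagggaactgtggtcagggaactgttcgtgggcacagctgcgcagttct
Fcgr2b, chr1:170976022-170976321, minus strand: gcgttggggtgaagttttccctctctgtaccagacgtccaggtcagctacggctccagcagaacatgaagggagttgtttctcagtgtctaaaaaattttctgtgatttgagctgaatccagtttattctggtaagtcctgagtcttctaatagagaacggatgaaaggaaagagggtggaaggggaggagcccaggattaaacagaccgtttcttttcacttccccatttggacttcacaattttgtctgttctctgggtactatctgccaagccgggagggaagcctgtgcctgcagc
Itgam, chr7:128062390-128062689, plus strand: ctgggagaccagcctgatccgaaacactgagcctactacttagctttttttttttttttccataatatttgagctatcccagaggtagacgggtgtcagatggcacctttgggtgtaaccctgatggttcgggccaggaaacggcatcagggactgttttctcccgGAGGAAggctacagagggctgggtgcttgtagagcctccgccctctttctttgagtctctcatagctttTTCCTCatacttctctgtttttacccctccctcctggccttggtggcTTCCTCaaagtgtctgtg
The core occurred on either strand in 27.5% of 17492 promoters of this length, and 3 or more copies in 0.589%. Fcgr1, Fcgr3 and Fcgr4 each had 1 copy and Itgam had 3, while Fcgr2b, Fcer1g, Cd47 and Itgax had none in this window. The pair of interferon factor half-sites, held by 3.4% of promoters, occurred in Fcgr4, and the AP-1 letters TGANTCA, held by 7.08%, occurred in Itgax. CCAAT, held by 39.0% of promoters, occurred in Itgax, and TATAAA, held by 13.3%, in none of the 8. Cd47 stood apart in base composition, with 35 CpG pairs against a median of 13 over all promoters, whereas the other 7 had 1 to 7. A match is a property of the letters alone.

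The activating receptors were accessible in Kupffer-like cells and close to the lowest levels in endothelial-like cells of the same library. Levels are fragments overlapping the gene body with 2 kb on each side, per 1000000 fragments of the class (CPM), and per kb of window where genes are compared. Fcgr3, the low-affinity activating receptor, had 119 fragments in Kupffer-like cells of library 2 and 290 in those of library 1, against 13 and 17 in endothelial-like cells. Per kb these were 2.01 and 2.78 CPM in Kupffer-like cells and 0.34 and 0.598 CPM in endothelial-like cells. The counting intervals of these summed levels did not overlap between the classes in either library. The log2 ratio of Kupffer-like over endothelial-like cells, given throughout relative to the median gene, was 2.53 (1.75 to 3.53) in library 2 and 2.19 (1.52 to 3.03) in library 1. Fcgr4, which binds IgG2 subclasses with intermediate affinity, had 60 and 198 fragments in Kupffer-like cells, against 8 and 12 in endothelial-like cells of libraries 2 and 1. Its log2 ratios were 2.21 (1.22 to 3.56) and 2.13 (1.34 to 3.16).

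Fcgr1, the high-affinity receptor, was the activating receptor whose ratio differed most between the libraries. It had 42 fragments in Kupffer-like cells of library 2 and 178 in those of library 1, against 13 and 8 in endothelial-like cells. The log2 ratio was 1.04 (0.15 to 2.10) in library 2 and 2.53 (1.60 to 3.85) in library 1. Of the 13 endothelial-like fragments of library 2, 9 came from 1 cell and lay in a pile-up, and with pile-ups masked the ratio in library 2 was 2.62. Fcer1g, the shared signalling chain, had 99 and 264 fragments in Kupffer-like cells of libraries 2 and 1, against 17 and 13 in endothelial-like cells. Its log2 ratios were 1.89 (1.17 to 2.76) and 2.43 (1.68 to 3.41), and its level per kb was among the 2 highest of the 10 genes in Kupffer-like cells of both libraries, 3.57 and 5.40 CPM. The window of Fcer1g is the only one that overlaps another protein-coding gene, so part of its signal may not belong to Fcer1g.

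Fcgr2b ran the other way. The inhibitory Fc receptor had 39 fragments in Kupffer-like cells of library 2 and 127 in those of library 1, against 169 and 166 in endothelial-like cells. Per kb, Fcgr2b was at 0.632 and 1.17 CPM in Kupffer-like cells and at 4.25 and 5.61 CPM in endothelial-like cells, where it was the highest of the 10 genes in both libraries. Its log2 ratio was -2.72 (-3.28 to -2.22) in library 2 and -2.25 (-2.60 to -1.91) in library 1. A fragment of Fcgr2b was found in 11.7% of Kupffer-like cells of library 2 and 29.0% of those of library 1, against 53.7% and 58.1% of endothelial-like cells. With each cell thinned to 5000 fragments, which left out 21 and 30 Kupffer-like and 13 and 25 endothelial-like cells, the shares were 5.97% and 10.9% of Kupffer-like cells and 26.8% and 36.4% of endothelial-like cells. Stellate or fibroblast-like cells had 3 and 5 Fcgr2b fragments, 0.258 and 0.309 CPM per kb, and none of their thinned cells held one. Cluster 4 was at 1.47 and 1.76 CPM per kb. The 28 hepatocyte-like cells of library 1 had 12 Fcgr2b fragments, 6 of them from 1 cell, at 1.36 CPM per kb (0.70 to 2.37).

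With all fragments counted, the Sirpa and Cd47 windows differed by less than 2-fold between Kupffer-like and endothelial-like cells. Sirpa, the receptor for Cd47, had 626 fragments in Kupffer-like cells of library 2 and 1142 in those of library 1, against 227 and 163 in endothelial-like cells. Its log2 ratios of 0.84 (0.62 to 1.07) and 0.94 (0.71 to 1.19) stayed under 2-fold. Its strand was not at hand, so its start window of 1 kb on each side was set at the annotated gene end with more fragments. In that window the ratio was -0.032 (-0.87 to 0.85) in library 2. In library 1 it was 2.08 (0.42 to 5.48), on 35 Kupffer-like and 2 endothelial-like fragments. In library 2, 81 of the 227 endothelial-like fragments came from 1 cell, and with pile-ups masked the ratio over the whole Sirpa window was 1.34, which is past 2-fold. Cd47, present on most cell types, had 521 and 1332 fragments in Kupffer-like cells of libraries 2 and 1, against 249 and 219 in endothelial-like cells, with log2 ratios of 0.44 (0.23 to 0.67) and 0.74 (0.53 to 0.95). Cd47 was also the most evenly spread over classes, with 2.24 and 2.22 CPM per kb in stellate or fibroblast-like cells and 1.98 and 2.43 in cluster 4.

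All 3 integrin genes were more accessible in Kupffer-like than in endothelial-like cells. Itgam, the alpha chain of complement receptor 3, had 103 and 341 fragments in Kupffer-like cells of libraries 2 and 1, against 12 and 17 in endothelial-like cells, with log2 ratios of 2.43 (1.62 to 3.48) and 2.42 (1.76 to 3.26). Itgax, the alpha chain of complement receptor 4 and a marker of dendritic cells, had 70 and 179 fragments against 16 and 9, with log2 ratios of 1.48 (0.71 to 2.39) and 2.38 (1.49 to 3.60). Itgb2, the beta chain that both share, had 333 and 745 fragments against 62 and 55, with log2 ratios of 1.80 (1.41 to 2.22) and 1.88 (1.50 to 2.32). Cluster 4 exceeded the Kupffer-like cells in Itgax, at 2.00 and 2.38 CPM per kb in libraries 2 and 1, against 0.881 and 1.28 in Kupffer-like cells, with intervals that do not overlap in either library. The same held for Itgam, at 1.07 and 1.49 CPM per kb in cluster 4, against 0.544 and 1.02 in Kupffer-like cells. In Itgb2 the order held only in library 2, with 3.52 in cluster 4 and 2.67 in Kupffer-like cells, whereas 3.63 and 3.40 in library 1 had overlapping intervals.

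**Figure D1:**
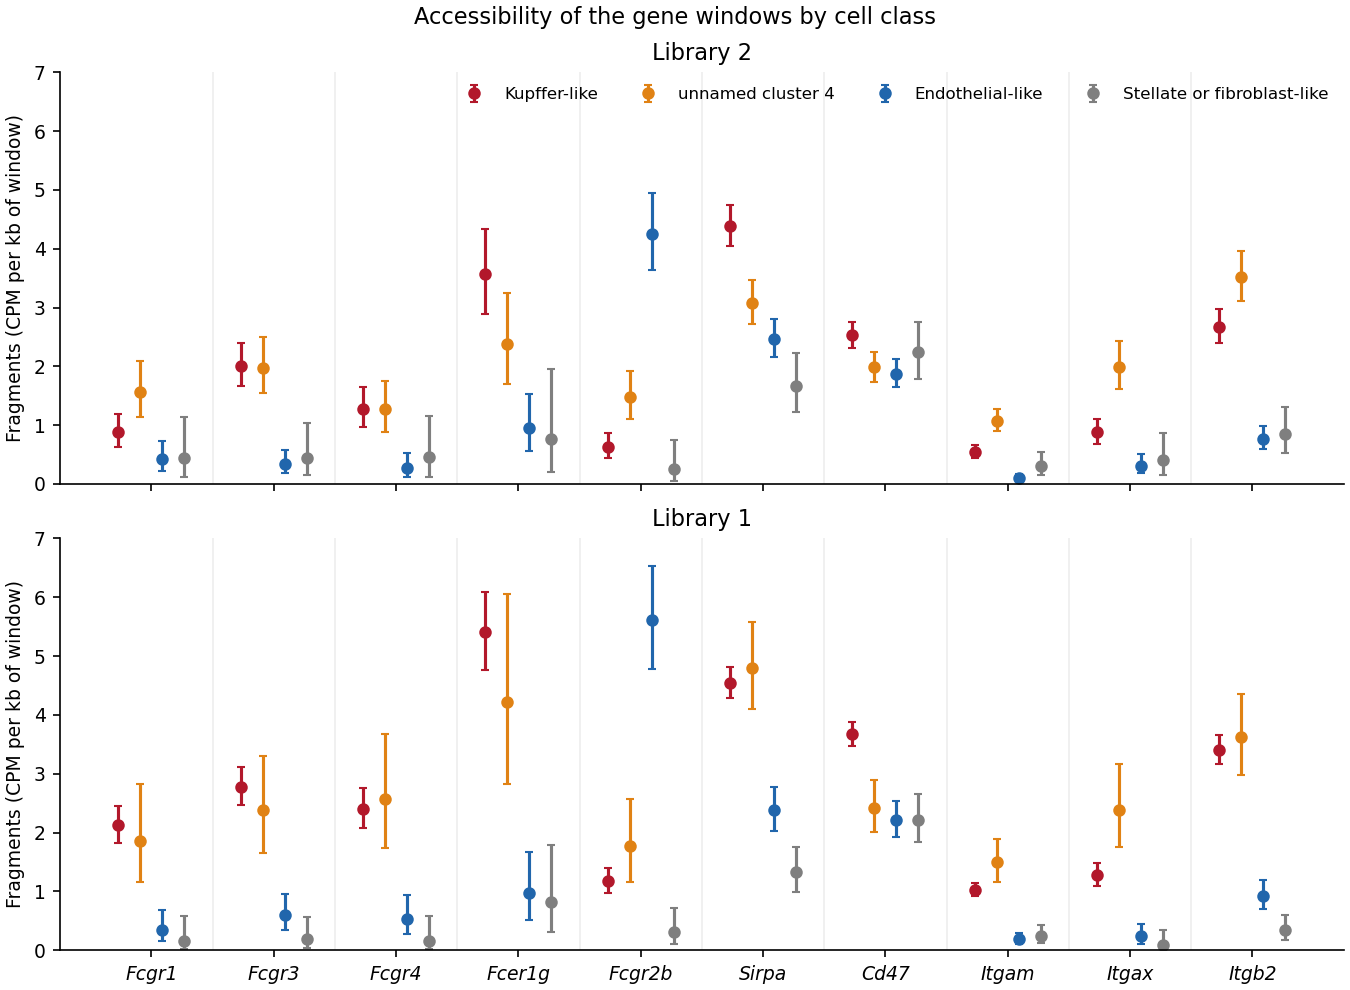
Fragments per kb of window, in CPM of the class, for the 10 genes in library 2 (top) and library 1 (bottom), with Kupffer-like cells, unnamed cluster 4, endothelial-like cells and stellate or fibroblast-like cells from left to right within a gene and exact 95% Poisson intervals of counting error. Fcgr2b reached 4.25 and 5.61 in endothelial-like cells, above every other class shown, while Itgam and Itgax were highest in cluster 4.

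Counted over the list, 7 of the 10 genes were more than 2-fold higher in Kupffer-like than in endothelial-like cells of library 2, where 10.3% of 14034 genes with at least 50 fragments were. The same 7 were in library 1, where 12.6% of 14998 genes were. One gene, Fcgr2b, was more than 2-fold lower in each, beside 10.6% of genes in library 2 and 9.6% in library 1, and Sirpa and Cd47 were on neither side. The median of the 10 log2 ratios was 1.64 in library 2 and 2.16 in library 1, where the middle 50% of all genes lay between -0.45 and 0.45 and between -0.39 and 0.48. With pile-ups masked the count in library 2 was again 7, but with Sirpa in place of Fcgr1, which then had fewer than 50 fragments. In that setting 8.27% of all genes were higher and 8.1% lower. The count in library 2 was 4 with cells assigned by marker fragments, 2 with cells thinned to 5000 fragments and 1 with windows of 1 kb on each side of the gene start, where 7, 4 and 3 of the 10 genes reached 50 fragments. In library 1 it was 7 in each of these settings. The genes are known macrophage and endothelial genes, so the list was not chosen blind to this direction.

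**Figure D2:**
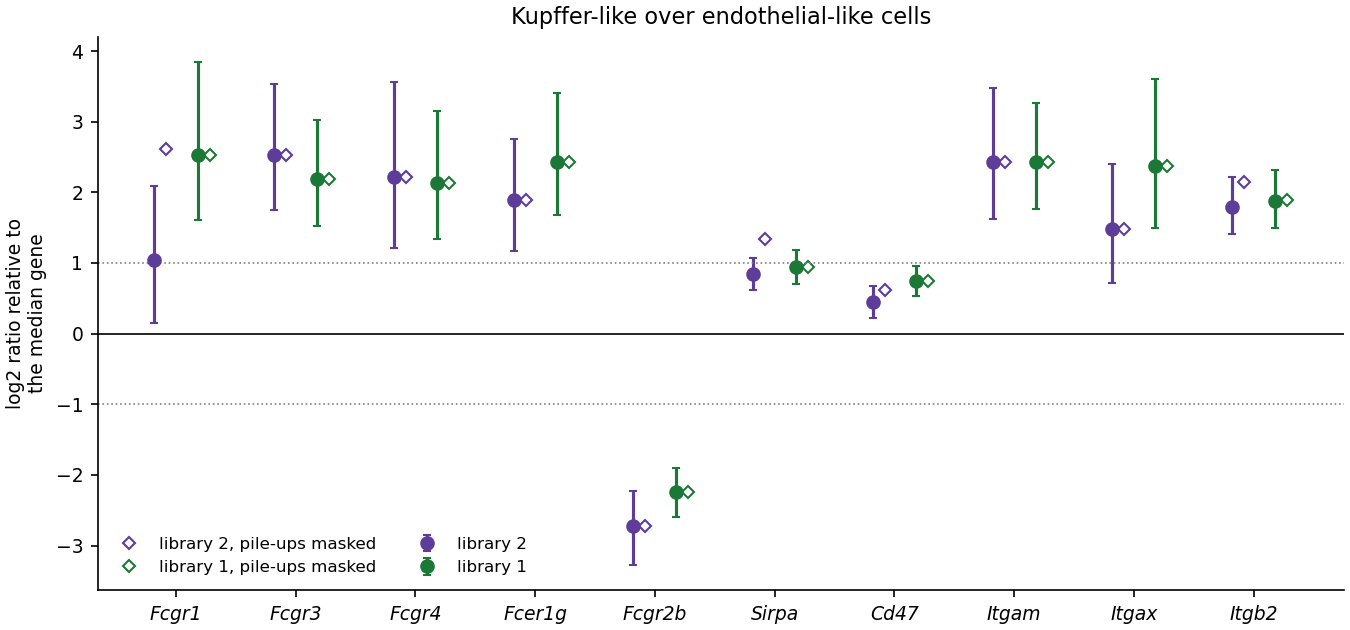
Log2 ratio of Kupffer-like over endothelial-like cells relative to the median gene, in library 2 (left in each gene) and library 1, as filled circles with exact 95% intervals of counting error and as open diamonds with pile-ups masked. Dotted lines mark 2-fold; Fcgr2b lies at -2.72 and -2.25, and Fcgr1 in library 2 lies at 1.04, or at 2.62 once masked.

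Fcgr2b was among the lowest levels in Kupffer-like cells and the highest in endothelial-like cells. In Kupffer-like cells Fcer1g and Sirpa led in both libraries, with overlapping intervals, and Fcgr3 was above Fcgr4 and Fcgr1. Fcgr3 and Fcgr4 did not overlap in library 2, at 2.01 and 1.28 CPM per kb, and did in library 1, at 2.78 and 2.40. There the lowest 3 were Itgax, Fcgr2b and Itgam in both libraries, and these neighbours overlapped. In endothelial-like cells the order began with Fcgr2b, Sirpa and Cd47 in both libraries, and each of the remaining 7 genes was below 1 CPM per kb.

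Over these windows the ratio of activating to inhibitory receptors was below 1 in every class shown and had its lowest values in endothelial-like cells. In windows of 1 kb on each side of the gene start the order was turned in Kupffer-like cells, at 1.86 (1.31 to 2.68) in library 2 and 3.20 (2.52 to 4.11) in library 1, against 0.235 (0.121 to 0.438) and 0.607 (0.282 to 1.33) in endothelial-like cells, and the Sirpa part of these is uncertain because its strand was not at hand. Sirpa gave 31 of the 42 inhibitory Kupffer-like fragments in library 2 and 35 of the 79 in library 1. Its window missed the fullest Sirpa bins, and whether the turn holds with these bins included was not tested. Summed over Fcgr1, Fcgr3, Fcgr4 and Fcer1g on one side and Fcgr2b and Sirpa on the other, Kupffer-like cells had 320 activating and 665 inhibitory fragments in library 2 and 930 and 1269 in library 1. Per kb of window the ratio was 0.542 (0.473 to 0.620) in library 2 and 0.826 (0.758 to 0.899) in library 1. Endothelial-like cells had 51 and 396 fragments in library 2 and 50 and 329 in library 1, a ratio of 0.145 (0.106 to 0.195) and 0.171 (0.125 to 0.231). The unnamed cluster 4 was close to equal in the libraries, at 0.674 (0.561 to 0.808) and 0.663 (0.523 to 0.839). With 17 and 13 activating fragments, the stellate or fibroblast-like class was at 0.399 (0.215 to 0.707) and 0.266 (0.133 to 0.494), and the interval in library 1 overlaps that of endothelial-like cells. Sirpa gave 626 of the 665 inhibitory fragments of the Kupffer-like cells of library 2, so in these cells the sum is mainly a comparison with Sirpa.

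Set against single activating receptors, Fcgr2b separated Kupffer-like from endothelial-like cells by non-overlapping intervals. Per kb, Fcgr2b over Fcgr3 was 0.315 (0.213 to 0.455) in Kupffer-like cells of library 2 and 0.421 (0.339 to 0.520) in those of library 1, against 12.5 (7.11 to 23.9) and 9.38 (5.68 to 16.5) in endothelial-like cells. Fcgr2b over Fcgr4 was 0.494 and 0.488 in Kupffer-like cells, against 16.1 and 10.5 in endothelial-like cells. Fcgr2b over Fcgr1 was 0.717 (0.451 to 1.14) and 0.551 (0.435 to 0.695) in Kupffer-like cells, with 1 inside the interval of library 2, against 10.0 (5.71 to 19.2) and 16.0 (7.94 to 37.7) in endothelial-like cells. Cluster 4 had values between those of the classes for Fcgr2b over Fcgr3, at 0.744 (0.514 to 1.07) and 0.741 (0.431 to 1.26). Its interval was apart from that of Kupffer-like cells in library 2 only. For Fcgr2b over Fcgr4 and over Fcgr1, cluster 4 overlapped Kupffer-like cells in both libraries. Sirpa over Cd47 per kb was 1.73 (1.54 to 1.95) and 1.24 (1.14 to 1.34) in Kupffer-like cells, against 1.31 (1.09 to 1.58) and 1.07 (0.871 to 1.32) in endothelial-like cells. The value of 1.31 includes 81 of 227 Sirpa fragments from 1 cell. Masking pile-ups left 160 Sirpa fragments and 220 of 249 Cd47 fragments there. Fcgr2b, Fcgr3 and Fcgr4 are close relatives in sequence, and how reads that fit more than 1 of them were placed is not stated in the labels.

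**Figure D3:**
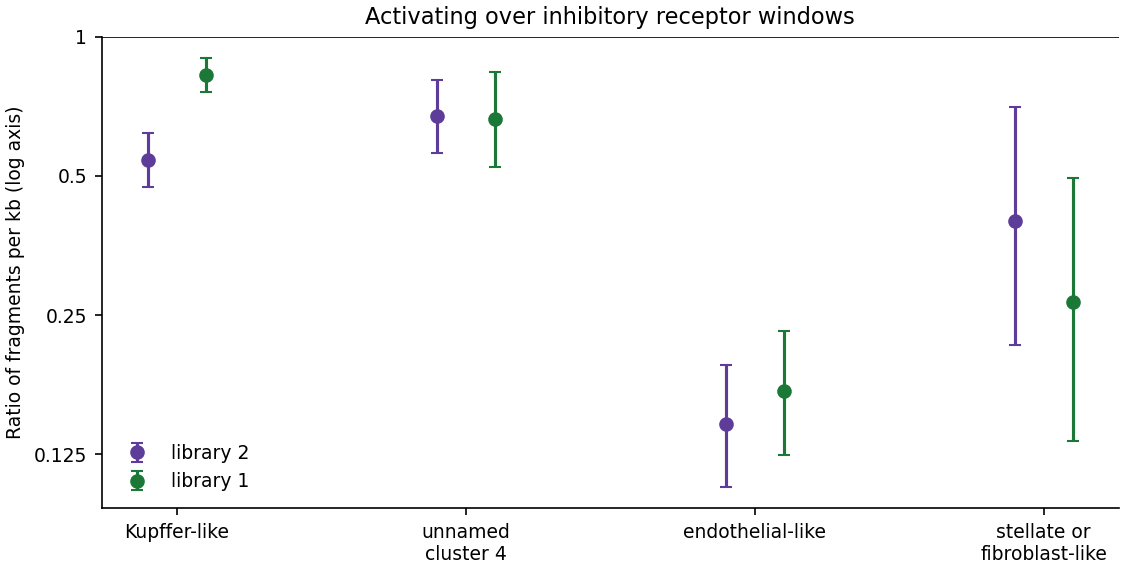
Ratio of fragments per kb over the activating receptors (Fcgr1, Fcgr3, Fcgr4, Fcer1g) to the inhibitory receptors (Fcgr2b, Sirpa), on a log axis, by class in library 2 (left in each pair) and library 1, with exact 95% intervals of counting error. The endothelial-like values of 0.145 and 0.171 are the lowest, though the library 1 interval overlaps that of stellate or fibroblast-like cells, and the Kupffer-like intervals of the libraries, at 0.542 and 0.826, do not overlap.

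In bins of 500 bases, the endothelial signal of Fcgr2b was fullest inside the gene and not at its start. The bins named here were chosen after their values were seen, and their ratios are a description. The fullest bin in endothelial-like cells was 3 kb downstream of the gene start, in the gene body at chr1:170972822-170973321, with 3 fragments in Kupffer-like cells of library 2 and 7 in those of library 1, against 40 and 39 in endothelial-like cells. This bin held 24.0% and 23.8% of the endothelial-like fragments of the window, and its log2 ratios were -4.15 (-6.69 to -2.70) and -4.26 (-5.75 to -3.16). A second site, 13.5 kb downstream at chr1:170962322-170962821, had 1 and 17 fragments in Kupffer-like cells, against 16 and 27 in endothelial-like cells. A further site lay 16 kb downstream, in the flank at chr1:170959822-170960321. It had 5 and 34 fragments in Kupffer-like cells, against 16 and 16 in endothelial-like cells. Its log2 ratios were -2.20 (-4.10 to -0.78) and -0.80 (-1.67 to 0.18). At the start itself, chr1:170975822-170976321, Kupffer-like cells had 10 and 38 fragments and endothelial-like cells 5 and 7, with log2 ratios of 0.31 (-1.30 to 2.28) and 0.50 (-0.60 to 1.98). The start bin carried 25.6% and 29.9% of the Kupffer-like fragments of Fcgr2b and 2.99% and 4.27% of the endothelial-like ones. With windows of 1 kb on each side of the start, the log2 ratio of Fcgr2b was accordingly -0.81 (-2.13 to 0.45) in library 2 and 0.085 (-0.82 to 1.18) in library 1. These rest on 11 and 44 fragments in Kupffer-like cells, against 13 and 12 in endothelial-like cells, and the interval of library 2 takes in both 0 and a 2-fold lower value.

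The activating genes differed in how much of their Kupffer-like signal lay at the start. The start bin and its neighbour on each side held 57.1% and 64.6% of the Kupffer-like fragments of Fcgr1 in libraries 2 and 1, 50.5% and 61.2% of those of Fcer1g, 34.5% and 30.7% of those of Fcgr3, and 13.6% and 22.3% of those of Fcgr4. The Fcgr3 start bin, which covers the printed promoter with its ETS core, had 39 and 82 fragments in Kupffer-like cells of libraries 2 and 1, against 1 and 1 in endothelial-like cells. A second Fcgr3 site 2 kb downstream had 26 and 64 fragments against 0 and 1, and a further site 8.5 kb downstream in the flank had 11 and 44 against 3 and 1. The Fcgr1 start bin had 16 and 81 fragments against 2 and 2, which was 38.1% and 45.5% of the Kupffer-like fragments of its window. The Fcer1g start bin, with no ETS core of these letters in its printed promoter, had 31 and 104 fragments in Kupffer-like cells, against 4 and 6 in endothelial-like cells. Fcgr4 was fullest 1 kb before its start, with 21 and 46 fragments against 1 and 3, and had 7 and 29 against 0 and 2 at the start.

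The integrin genes had several sites each. Itgam had a site 1 kb downstream of its start, its fullest bin in library 2, with 32 and 61 fragments in Kupffer-like cells of libraries 2 and 1, against 0 and 1 in endothelial-like cells. A second Itgam site 26.5 kb downstream, its fullest bin in library 1, had 18 and 64 fragments, against 0 and 1, while the bin at the start, whose promoter holds 3 ETS cores, had only 3 and 20, against 1 and 1. Itgax was fullest 4.5 kb downstream, with 16 and 42 fragments against 0 and 2. For Itgb2 and Sirpa no strand was at hand, so their distances run from the lower coordinate of the gene. Itgb2 was fullest 21 kb from it, at chr10:77551079-77551578 in the gene body, with 62 and 134 fragments in Kupffer-like cells, against 4 and 6 in endothelial-like cells.

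Cd47 and Sirpa combined shared and Kupffer-like sites. The Cd47 bin that begins at the printed table's CpG-rich promoter had 91 and 143 fragments in Kupffer-like cells of libraries 2 and 1, against 57 and 60 in endothelial-like cells, with log2 ratios of 0.05 (-0.44 to 0.56) and -0.62 (-1.06 to -0.15). A Cd47 site 3 kb downstream, at chr16:49858404-49858903, had 38 and 105 fragments against 4 and 6, with log2 ratios of 2.48 (1.16 to 4.58) and 2.16 (1.10 to 3.74). The 2-fold limit was thus passed at this site and not over the whole window, where the values were 0.44 and 0.74. Sirpa had a site 1.5 kb from its lower coordinate, at chr2:129592292-129592791, its fullest bin in library 1, with 89 and 177 fragments in Kupffer-like cells, against 12 and 16 in endothelial-like cells. There its log2 ratios were 2.22 (1.40 to 3.28) and 1.56 (0.86 to 2.44), while a bin 5 kb from that coordinate had 83 and 154 fragments against 27 and 33, with log2 ratios of 0.98 and 0.34. The fullest Sirpa bin in library 2 lay 42.5 kb from that coordinate, in the flank at chr2:129633292-129633791, with 100 and 149 fragments in Kupffer-like cells, against 31 and 20 in endothelial-like cells, and log2 ratios of 1.06 (0.48 to 1.70) and 1.00 (0.35 to 1.79).

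**Figure D4:**
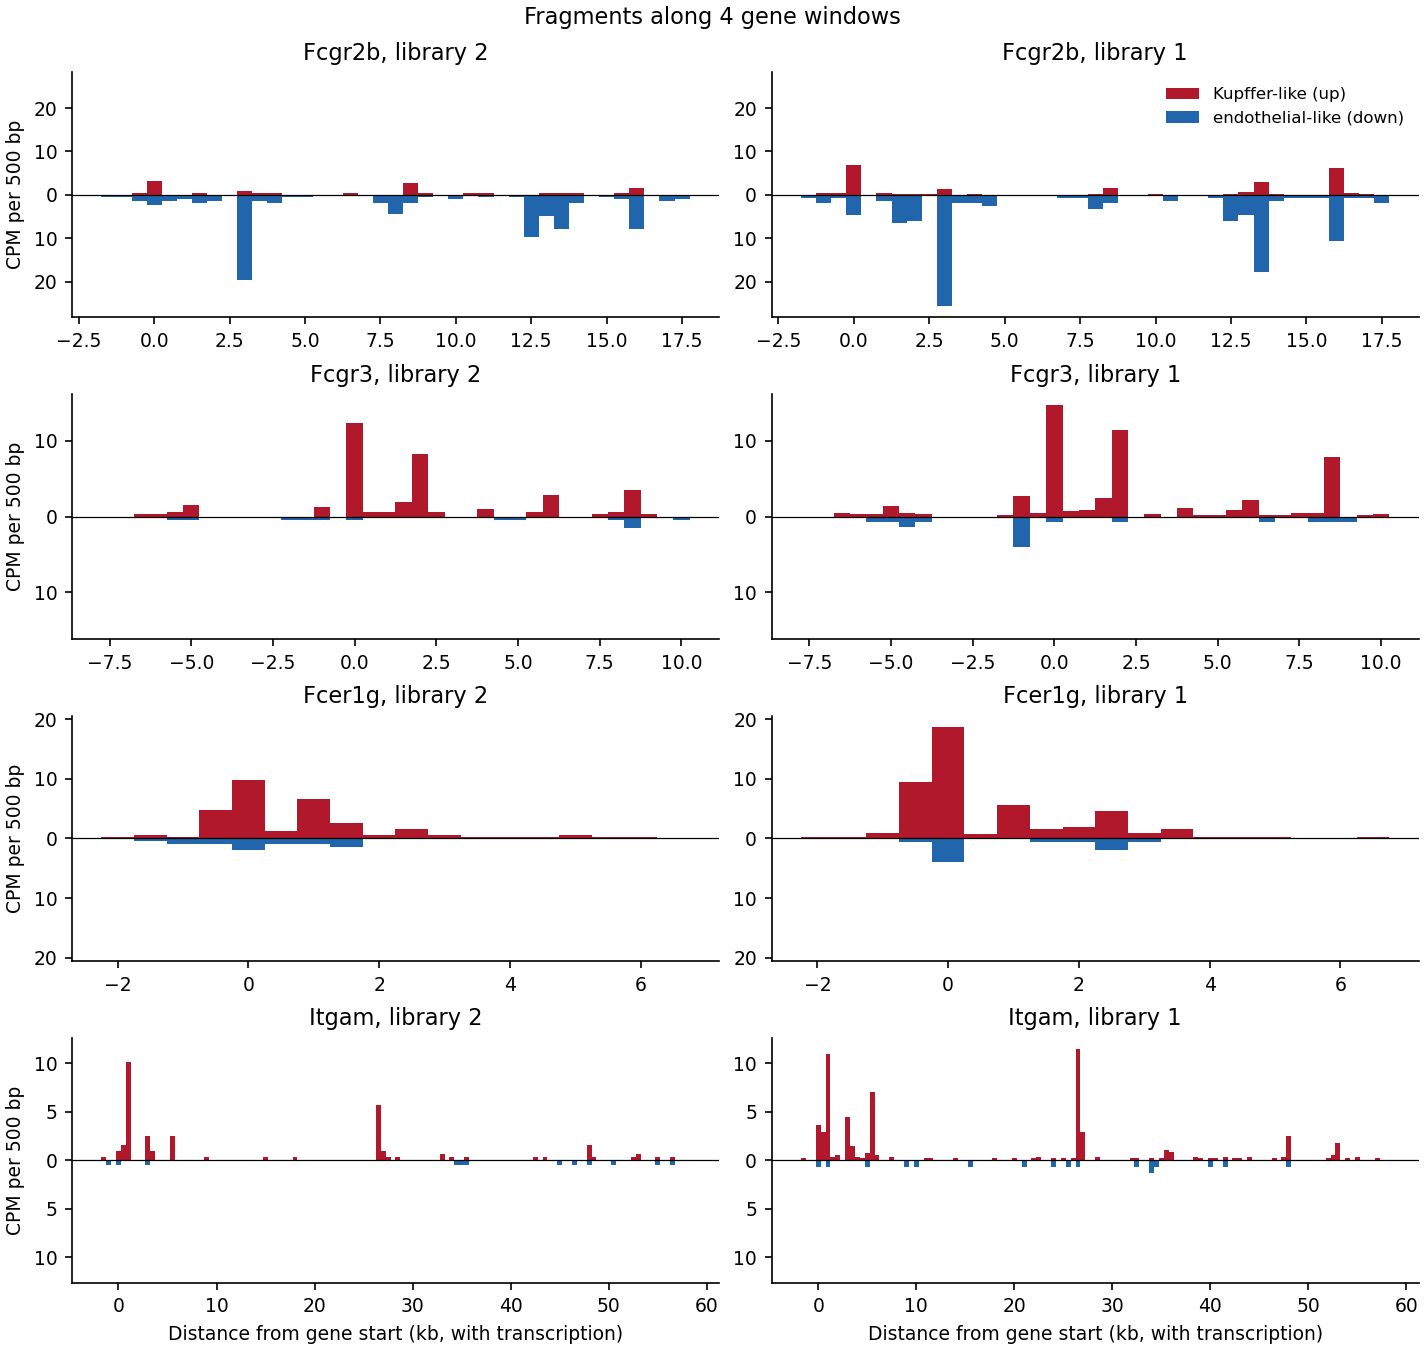
Fragments per 500 bases, in CPM of the class, against distance from the gene start in kb along the direction of transcription, for Fcgr2b, Fcgr3, Fcer1g and Itgam in library 2 (left) and library 1 (right), with Kupffer-like cells drawn upward and endothelial-like cells downward on the same scale. Endothelial-like cells peak 3 kb inside Fcgr2b, at 19.6 and 25.7 CPM, whereas Fcgr3 and Fcer1g peak at the start in Kupffer-like cells.

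Between the libraries, Kupffer-like cells differed by less than 2-fold for 9 of the 10 genes. Fcgr1 was the exception, with 13.3 CPM in library 2 and 32.0 CPM in library 1, a log2 ratio of library 2 over library 1 of -1.01 (-1.55 to -0.54) relative to the median gene. Over all 15433 genes tested, 3.45% were more than 2-fold lower in library 2 and 7.94% higher, so 1 lower and 0 higher of 10 is near the background. The median gene itself was at -0.24 on the log2 scale in this comparison, before centring. With pile-ups masked Fcgr1 was at -0.94, and none of the 10 genes was past 2-fold, beside 3.15% of all genes lower and 4.73% higher.

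The other activating genes were lower in library 2 by smaller amounts. Fcgr4 had 19.0 CPM in library 2 and 35.6 CPM in library 1, with a log2 ratio of -0.66 (-1.11 to -0.24), and Fcer1g had 31.3 and 47.4 CPM, with -0.35 (-0.71 to -0.02). With pile-ups masked Fcer1g was at -0.28 (-0.64 to 0.05), which takes in 0. The interval of Fcgr3 took in 0, at -0.23 (-0.55 to 0.08). Among the inhibitory genes, Fcgr2b was at -0.63 (-1.20 to -0.12) and Sirpa at 0.19 (0.05 to 0.33), from 198 CPM in library 2 and 205 CPM in library 1, so Sirpa was higher in library 2 only relative to the median gene. Cd47 was at -0.30 (-0.45 to -0.15), but at 0.22 (-0.02 to 0.47) in windows of 1 kb on each side of its start. Itgam was at -0.67, with an interval that left out 0. The intervals of Itgax, at -0.29 (-0.72 to 0.11), and Itgb2, at -0.10 (-0.30 to 0.08), took in 0. In windows of 1 kb on each side of the start this was turned for Itgam, at -0.18 (-0.77 to 0.36), and Itgax, at -0.89 (-1.93 to -0.03). The median of the 10 was -0.33.

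Summed marker levels also differed between the libraries, in both directions, though each sum that was higher in library 2 depended largely on 1 gene. In Kupffer-like cells the 11 Kupffer markers summed to 635 CPM in library 2 and 1090 CPM in library 1, 11 of 11 were lower in library 2 and their median log2 ratio was -0.45, with 1 past 2-fold, Cd163. Monocyte markers summed to 169 CPM in library 2 and 246 CPM in library 1, dendritic cell markers to 186 and 293, and neutrophil markers to 75.6 and 125, with none of these 3 lists at 0 for any marker. Hepatocyte markers summed higher in library 2, to 88.2 CPM against 56.8 CPM in library 1, with 6 of 9 higher and Cyp2e1 at 0 in library 2. Stellate or fibroblast markers summed to 172 CPM in library 2 and 145 CPM in library 1, with 5 of 10 higher, cholangiocyte markers to 41.1 and 26.0, with 2 of 6 higher, and basophil or mast cell markers to 112 and 97.9, with 3 of 6 higher. The fullest genes of these lists in library 2 were Apob (hepatocyte), Reln (stellate or fibroblast), Cftr (cholangiocyte) and Cd200r3 (basophil or mast cell). Without Apob, Reln or Cftr the sum of its list was lower in library 2. Without Cd200r3 the sums of its list were nearly equal. Whether these directions hold with pile-ups masked was not tested. Endothelial markers summed to 511 CPM in library 2 and 613 CPM in library 1, B cell markers to 164 and 178, T or NK cell markers to 77.8 and 78.0, and erythroid markers to 48.4 and 49.2. In endothelial-like cells the 12 endothelial markers also summed lower in library 2, to 1470 CPM against 2462 CPM in library 1. The share of fragments in peaks in Kupffer-like cells was 57.4% at the median in library 2 and 74.0% in library 1. The part of these differences in the values of the receptor genes was not tested, and the library, the clusters that hold its cells and the genotype cannot be told apart. Within library 1 the 218 cells of cluster 3 and the 90 of cluster 7 had similar levels per kb, such as 2.23 and 2.06 CPM for Fcgr1, 2.80 and 2.82 for Fcgr3 and 1.17 and 1.18 for Fcgr2b, with overlapping intervals. The 218 cells of cluster 2 in library 2 had 0.852, 1.95 and 0.607 CPM per kb for these genes.

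**Figure D5:**
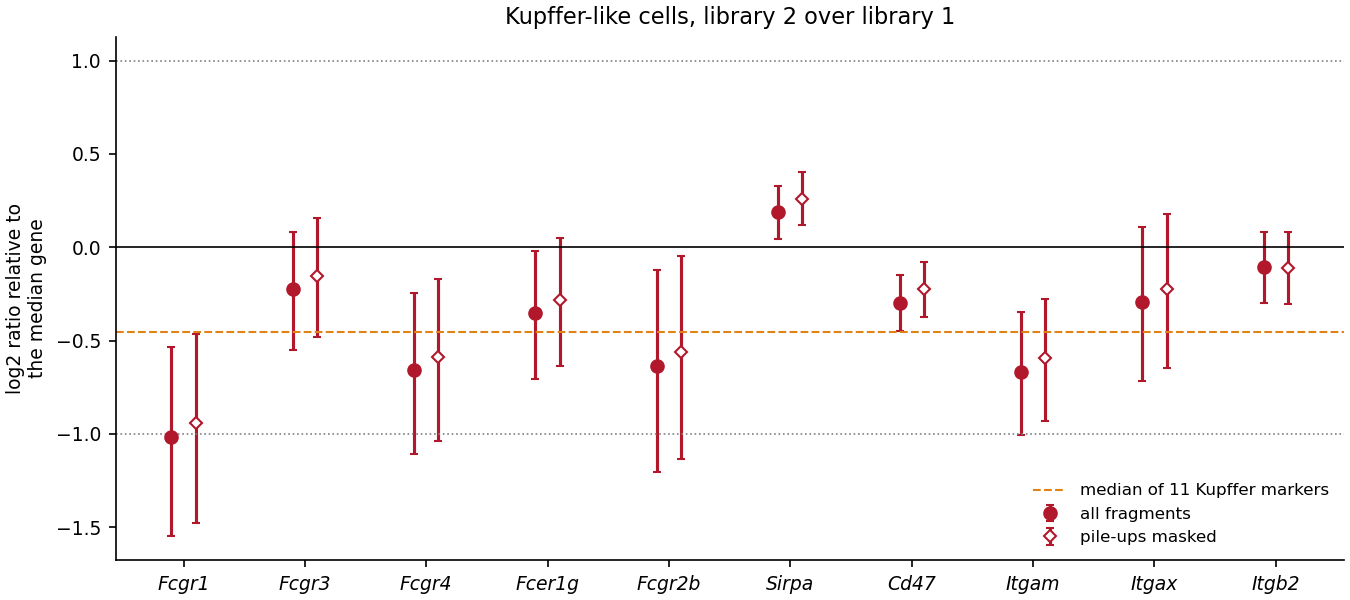
Log2 ratio of library 2 over library 1 in Kupffer-like cells relative to the median gene, for all fragments (filled circles) and with pile-ups masked (open diamonds), with exact 95% intervals of counting error. Dotted lines mark 2-fold and the dashed line is the median of the Kupffer markers at -0.45; Fcgr1 is lowest at -1.01 and Sirpa highest at 0.19.

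In endothelial-like cells 4 of the 10 genes, Fcgr2b, Sirpa, Cd47 and Itgb2, reached 50 fragments between the libraries. Their log2 ratios of library 2 over library 1 lay between -0.19 and 0.26 and every interval took in 0. None was past 2-fold, beside 7.36% of 12717 genes higher and 2.45% lower. Fcgr2b was at -0.19 (-0.51 to 0.12), from 82.9 CPM in library 2 and 109 CPM in library 1. The other 6 had 8 to 17 fragments in each library and are given no ratio between the libraries.

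Genes of the signalling pathways that passed 2-fold were higher in Kupffer-like cells, as the activating receptors were. Of 15 kinases and adaptors of Fc receptor signalling, 8 of the 14 with 50 fragments were more than 2-fold higher in Kupffer-like cells of library 2 and 11 of 15 in those of library 1, and none was lower, with list medians of 1.20 and 1.73. Over all genes, the shares given above were 10.3% higher and 10.6% lower in library 2, and 12.6% and 9.6% in library 1. Syk, the kinase recruited by the gamma chain, had 468 and 898 fragments in Kupffer-like cells, against 37 and 31 in endothelial-like cells, with log2 ratios of 3.02 (2.56 to 3.57) and 2.97 (2.48 to 3.56). Ptprc, the leukocyte phosphatase CD45, was at 1.55 and 3.56, and at 2.16 in library 2 with pile-ups masked, and the kinase gene Prkcd was at 2.57 and 2.47. Of 10 genes of inhibitory receptor signalling, 5 were higher in library 2 and 6 in library 1 and none was lower. Among them, Ptpn6, which acts downstream of Sirpa, was at 2.08 (1.55 to 2.68) and 2.59 (2.05 to 3.25). Lilrb4a, an inhibitory receptor, had 58 and 109 fragments in Kupffer-like cells, against 1 and 0 in endothelial-like cells, and Sh2d1b1, an adaptor, had 54 and 92, against 5 and 1. In both lists every gene past 2-fold was thus higher in Kupffer-like cells, unlike Fcgr2b.

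The integrin partners were mixed. Of 15 genes, read against the same shares over all genes, 4 were higher and 3 lower in Kupffer-like cells of library 2, and 5 were higher and 2 lower in those of library 1. Itgad, a further alpha chain for Itgb2, was at 2.21 (1.22 to 3.56) and 3.37 (2.01 to 5.88), Apbb1ip, an adaptor of integrin activation, at 2.88 and 1.86, and the alpha-4 integrin gene Itga4 at 1.01 and 3.43, with 1.75 in library 2 once pile-ups were masked. Icam2, an endothelial ligand of beta-2 integrins, was lower at -1.82 (-2.53 to -1.17) and -1.39 (-1.81 to -0.95), and Skap1, an adaptor known from T cells, at -2.47 and -1.13, with -1.83 in library 2 once pile-ups were masked. Among 8 other antibody receptors, 0 of 4 were past 2-fold in library 2 and 1 of 5, Fcrla, was higher in library 1. Of 7 genes of the SIRP family and of red cell recognition, 1 of 4 was higher in library 2 and 4 of 7 in library 1, with Sirpb1a at 1.76 (0.79 to 3.04) and 2.40 (1.34 to 3.98). Bcam was lower in both, at -1.24 and -1.42. Between the libraries, Kupffer-like cells were more than 2-fold lower in library 2 for Rac2 at -1.11, Trim21 at -1.23, Pigr at -1.06, Thbs1 at -1.08 and Bcam at -1.04, named after their values were seen, where 3.45% of all genes were lower and 7.94% higher. With pile-ups masked Pigr was at -0.99, on 10 fragments in library 2 and 45 in library 1, and Bcam at -0.97, so neither was past 2-fold. No gene of these 5 lists with at least 50 fragments was more than 2-fold higher, while Fcer1a, with 10 and 4 fragments, had a log2 ratio of 2.28 (0.58 to 4.50).

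Over 9 points, each a class in a library, the genes whose log2(CPM + 1) was most alike that of Fcgr2b were Manba with a Pearson correlation of 0.992 and Nrp2 with 0.969. Fcgr1 and Itgb2 shared 2 of their 3 most alike genes, Lcp1 at 0.986 and 0.991 and Themis2 at 0.979 and 0.986, and Lcp1 was also among those of Itgax at 0.982. Fcgr3 was the second most alike gene of Fcgr4, at 0.977. For Fcer1g they included Vav1 at 0.981 and Psap at 0.981, for Sirpa Cln8 at 0.988, and for Itgam Nf1 at 0.983. Cd47 had the weakest likeness, at most 0.944 with Ifit1bl1. The points share libraries and few classes, so such values describe a common split between classes. The points included the unnamed cluster 5 of library 2, described below, which had only 28.2% of its fragments in peaks at the median.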

How the data were processed

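Both libraries came as 1 fragment table and 1 per-barcode table. The authors deposited counts, not normalized: read pairs per unique fragment, and fragments per barcode with a cell call. Build GRCm38.p5, Signac 0.2.4, Seurat, R 3.6.1, Cell Ranger and Cell Ranger ATAC 1.2.0 are named in the submitters' processing notes; settings and the cell-call threshold are not given in the sources used here. The gene table was GRCm38.p6, a patch release with the same primary coordinates.

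Cells were the called barcodes with at least 1000 fragments in peaks, 15% in peaks and at most 5% blacklisted, 562 of 575 in library 2 and 609 of 637 in library 1. Bins of 5 kb seen in 10 cells (343105, with 790 bins at the genes described left out) were weighted by TF-IDF and reduced by SVD to 30 components (scikit-learn 1.9.0), the first was dropped, and 20 neighbours were clustered with Leiden at resolution 0.5 (leidenalg 0.10.2). A cluster took the name of a marker list that scored 0.25 on the log2 scale, led by 0.2, had 3 markers in 10% of cells and kept the name with pile-ups masked. These names are rebuilt, not the study's. Marked doublets were kept: an overlap rule at q 0.01 marked 85 cells in library 2 and 68 in library 1, and simulated pairs (scanpy 1.11.5) marked 19 and 4.

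Each unique fragment was counted once over a gene with 2 kb on both sides. Log2 ratios had 0.5 added to both counts, were centred on the median of genes with at least 50 fragments, and carry exact conditional binomial intervals at 95% (scipy 1.17.1); levels carry exact Poisson intervals. PCR copies had been collapsed to unique fragments, and intervals cover counting error only. A gene counted as different past 2-fold. On simulated counts 89%, 91% and 98% of 4-fold changes were recovered in the Kupffer-like over endothelial-like comparison of library 2, that of library 1, and library 2 over library 1. The genes and lists were chosen with earlier results of these data known. Named genes were all 10 receptors, the up to 3 highest and 3 lowest genes past 2-fold in both libraries per pathway list, and the 3 most alike genes per receptor; a gene that these rules name but the text does not is not reported here. A planned search for protein motifs was not run, since protein sequences were not used here.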

Additional observations from a re-analysis of the deposited data

Results flagged for a closer look

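Fragments of the 10 genes were also present in barcodes that the authors did not call as cells, which no comparison above uses. There were 2539 such fragments in library 2 and 866 in library 1. Scaled to all fragments of those barcodes, the windows summed to 268 CPM in library 2, against 485 CPM in its called cells, and to 452 CPM in library 1, against 701 CPM. Itgax in library 2 was at 34.9 CPM in these barcodes and at 21.4 CPM in called cells. What these barcodes hold was not tested.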

How the results depend on the processing

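Among the values of single genes under the alternatives, 384 moved by less than their interval, 35 moved by more and 1 past 2-fold changed sign: Fcgr2b, Kupffer-like over endothelial-like in library 1, was 0.085 with windows of 1 kb on each side of the gene start. Among the 35, ratios under 2-fold that changed sign were Sirpa, Kupffer-like over endothelial-like in library 2, at -0.032, and Cd47, library 2 over library 1, at 0.22, both in those windows, and Sirpa, library 2 over library 1, at -0.051 when scaled by all fragments. In those windows 1 of the 10 genes was more than 2-fold higher in Kupffer-like cells of library 2, where 3 reached 50 fragments. Activating over inhibitory fragments were 1.86 and 3.20 in Kupffer-like cells of libraries 2 and 1, and 0.235 and 0.607 in endothelial-like cells. For Sirpa, with no strand, this window was at the annotated end with more fragments, and it missed the fullest Sirpa bins: it held 31 and 35 Kupffer-like fragments.

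The count of genes higher in Kupffer-like cells of library 2 was 4 with cells assigned by marker fragments and 2 with cells thinned to 5000 fragments, where 7 and 4 genes reached 50 fragments. In library 1 no alternative moved that count by over 1.5 times. The ratio of activating to inhibitory fragments in endothelial-like cells of library 1 was 0.102 in thinned cells. The 1 gene past 2-fold between libraries, Fcgr1, gave a count of 0 with pile-ups masked, with gene bodies without flanks, with cells of at least 50% of fragments in peaks, at Leiden resolution 1 and in thinned cells. Its log2 ratio ranged from -1.49 to -0.86. The cause was not tested. Cells of 5000 to 50000 fragments were an alternative added after the data were seen, and gave 6 genes higher in library 2, 8 in library 1 and 1 apart between libraries. No paired analysis was possible because each genotype has 1 library, and leaving out a replicate was not possible either. Depth limits the endothelial-like values of the activating receptors, which rest on 8 to 17 fragments.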

Other observations

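An unnamed cluster 5 had 94 cells in library 2 and 13 in library 1, with only 28.2% and 29.5% of fragments in peaks. It was used in no ratio between classes or libraries, but its library 2 cells were among the 9 points of the Pearson correlations. Its levels per kb in library 2 ran from 0.574 CPM for Fcgr1 to 2.12 CPM for Sirpa, and Fcgr2b there was at 0.828 CPM. Its activating over inhibitory ratio was 0.567 (0.484 to 0.662) in library 2 and 0.563 (0.289 to 1.06) in library 1.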
